A study of Mus musculus with 2 samples.

Results

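The sites described here are positions with a low fraction modified in both libraries, although the position lies in a sequence context that can carry N6-methyladenosine (m6A). They were chosen by their measured values: a position had to be listed with 20 or more reads in each of 2 libraries, to lie in a motif of 5 bases that does not end in A, and to have a fraction modified of 0.1 or less in each library. Of 3220 sites at such motifs with 20 or more reads in each library, 471 met the rule, which is 14.6% (95% Wilson interval 13.5% to 15.9%). They are called members below, and the other 2749 sites at the same motifs are called the other sites. At GGACA, the A-ending motif, which the rule leaves out, 57 of 2001 sites (2.85%) were as low. Since the fraction chose the members, these shares are a description and were not tested.

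Both libraries came from wild-type Rx:GFP mouse retinal organoids, tissue aggregates grown from stem cells in which GFP reports the early eye gene Rx (Rax). The cells were kept for 6 days with AGN at 0.1 µM in a medium with serum replacement, and all samples share this treatment. Polyadenylated RNA, 1 µg for each library, was read as native RNA with the RNA002 chemistry on a separate flow cell for about 48 h. The libraries, replicate 1 and replicate 2, form 1 group, so no condition was compared, and the labels do not say whether they came from separate cultures. Of 15 eye-field and retinal progenitor genes 13 were listed, while 0 of 9 pluripotency genes, 0 of 9 endoderm and mesoderm genes and 1 of 8 neuron genes (Tubb3) were. A gene could be listed only from a position with 5 or more reads at an examined motif.

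m6A is placed on messenger RNA mainly by a nuclear complex whose catalytic subunit is METTL3. The complex prefers short motifs with the sequence DRACH, but only part of the motifs in a transcript are methylated, and the extent differs from site to site. Reader proteins of the YTH family bind the mark and can speed up decay of the RNA. Listed motifs with a low fraction are therefore the other side of m6A mapping. Only listed positions could be seen here. Whether listing itself depended on a modification call is not given in the sources used, so shares refer to listed sites and not to all motifs.

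The sequences that define the members are 3 motifs of 5 bases, given in DNA letters, in each of which the central A is the base that can be methylated. GGACT held 199 members in 184 named genes, GGACC held 166 in 151 genes and AGACT held 106 in 98 genes. As shares of the sites at each motif these were 16.0% of 1242 sites, 14.3% of 1162 and 13.0% of 816. Among members, 42.3% lay at GGACT (95% Wilson interval 37.9% to 46.8%). Among the other sites, weighted so that their coverage was spread over the same classes as that of the members, 37.8% did. The corresponding shares were 35.2% (31.1% to 39.7%) and 36.4% for GGACC. For AGACT they were 22.5% (19.0% to 26.5%) and 25.75%. The weighted share of the other sites lay within the interval for the members for GGACC, likewise for AGACT, and just under it for GGACT. The order of the motifs depended on the settings: with a minimum of 50 reads, 42.3% of members lay at GGACC while GGACT held 37.9%. The intervals cover counting error only, and sites on 1 transcript or in 1 gene share reads. Which base a listed position marks was read from 111 positions in the first 48 nt of a transcript whose gene has a RefSeq start in GRCm38.p6. The motif stood with base 4 at the deposited end in 24 of them and with base 3 there in 3, while in 80 it was at none of the offsets looked at. Among the positions that matched, the deposited start, counted from 1, thus mostly fell on the central A. Positions below are the deposited ends, counted from the transcript start.

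Levels within the members were low by construction, and the values describe how low. The coverage given beside a fraction is the listed number of reads and not its denominator at most members. The fraction was a whole multiple of 1 over coverage, within 0.00005 in the fraction, at 17.2% of members in replicate 1 and at 6.16% in replicate 2. Replicate 1 had a median of 0.0556 at members, with the middle of the distribution (its quartiles) between 0.0312 and 0.0735. Replicate 2 had a median of 0.0571, with quartiles of 0.0385 and 0.0789. At the other sites the medians were 0.3 and 0.289. The mean of both libraries was at most 0.025 at 52 members, between 0.025 and 0.05 at 155, between 0.05 and 0.075 at 176 and above that at 88. Replicate 2 was higher at 266 members, lower at 199 and equal at 6. The median absolute difference between the libraries was 0.0228. By motif, the medians in replicates 1 and 2 were 0.0576 and 0.0609 at AGACT and 0.0583 and 0.0640 at GGACC. They were 0.0528 and 0.0532 at GGACT.

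The rule depends on both libraries. At the 3220 sites, 714 had 0.1 or less in replicate 1 and 659 in replicate 2. The 471 members are 66.0% of the first set and 71.5% of the second. At the 243 sites that were low in replicate 1 alone, replicate 2 had a median of 0.143 and a maximum of 0.417. At the 188 sites low in replicate 2 alone, replicate 1 had a median of 0.149 and a maximum of 0.412. The limit of 0.1 cuts through a continuous range. Just inside it, 94 members had a higher fraction of 0.09 to 0.1, and just outside it 59 sites had a higher fraction of up to 0.11. Ran, a small GTPase of nuclear transport, has a site on each side. Its AGACT at position 1114 read 0.0868 at a coverage of 790 and 0.1001 at a coverage of 1328 and was left out. Actg1, a cytoskeletal actin, was just inside with 0.0886 at a coverage of 834 and 0.0990 at a coverage of 1755 at position 1721.

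**Figure D1:**
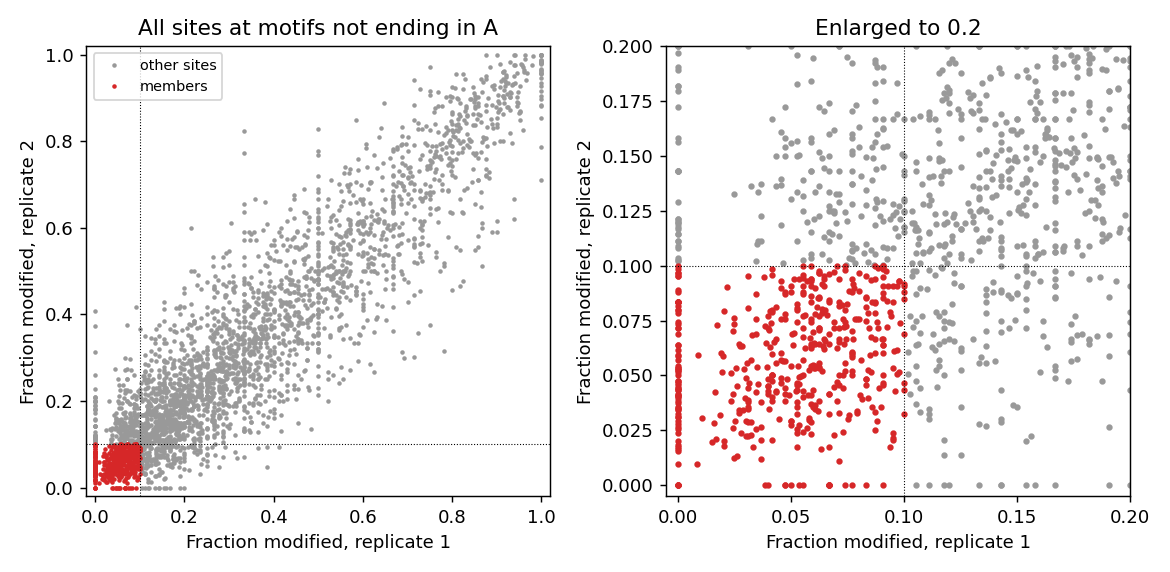
Fraction modified in replicate 1 (x axis) against replicate 2 (y axis) for the 3220 sites at motifs not ending in A with 20 or more reads in each library, whole range (left) and up to 0.2 (right). Dotted lines mark 0.1, the 471 members are red and the 2749 other sites grey, and the members sit in a corner that runs without a gap into the other sites.

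Coverage is a measure that the rule did not use directly above its minimum. The libraries differed more at shallow members, as given below, so passing the limit in both may itself depend on coverage. Members were covered by a median of 39 reads in replicate 1 (quartiles 27 and 71) and of 83 reads in replicate 2 (quartiles 54 and 151.5). The other sites had medians of 36 reads (26 and 61) and 75 reads (52 and 127). Replicate 2 held a median of 2-fold the reads of replicate 1 at members and 1.98-fold at the other sites. By the library with the lower coverage, members made up 13.0% of 1197 sites with 20 to 29 reads (95% Wilson interval 11.2% to 15.1%) and 14.6% of 912 sites with 30 to 49 reads. They made up 15.4% of 662 sites with 50 to 99 reads and 17.8% of 449 sites with 100 or more (14.6% to 21.6%). The intervals of neighbouring classes overlap, and the lowest and highest classes overlap slightly. At GGACC the share went from 11.5% (8.75% to 14.9%) in the shallowest class to 21.1% (15.8% to 27.5%) in the deepest, where the intervals do not overlap. At AGACT it was 11.7% and 11.4% and at GGACT 15.3% and 18.2%, with overlapping intervals. The deepest class is also a choice of genes, since it holds the most abundant transcripts, and the part of either in the shares was not tested.

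**Figure D2:**
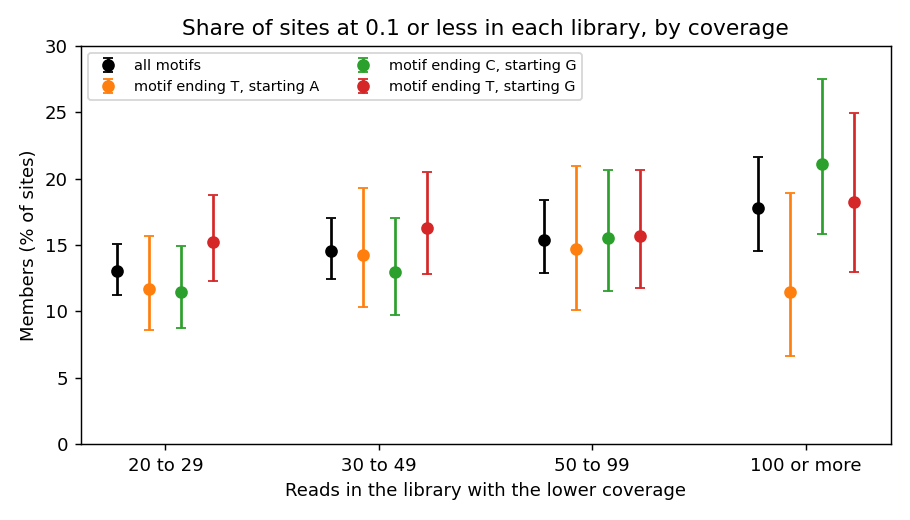
Members as percent of sites (y axis) in 4 classes of the lower coverage of both libraries (x axis, reads), for all 3 motifs together (black) and each motif apart, with 95% Wilson intervals as bars. The black points run from 13.0% to 17.8%, and the motif with C at the end runs from 11.5% to 21.1%.

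A fraction of 0 was seen mainly where reads were few. Replicate 1 listed 0 at 72 members with a median of 27.5 reads there, and replicate 2 at 19 members with a median of 42 reads. At 83 members 0 stood in a single library. The deepest 0 in replicate 1 was at a coverage of 89, at position 1536 of Macroh2a1, a variant histone gene, where replicate 2 read 0.0184 at a coverage of 249. The deepest 0 in replicate 2 was at a coverage of 101, at position 476 of Mrpl14, where replicate 1 read 0.0536 at a coverage of 71. Only 4 members stood at 0 in both libraries. A GGACT at position 1753 of Rcc1, the exchange factor that loads Ran with GTP, had 29 and 39 reads. In Saraf, a regulator of store-operated calcium entry, GGACC sites at positions 843 and 1490 had 20 and 22 reads in replicate 1 and 32 and 33 in replicate 2. The other was a GGACC at position 738 of Mknk2, a kinase of the cap-binding factor eIF4E, with 20 and 21 reads. These depths are at or near the minimum, so a low level above 0 was not separable from 0.

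None of the 80 members with 100 or more reads in each library was at 0 in either. Their mean fractions had a median of 0.0618 and went down to 0.0091. This lowest value was a GGACC at position 1289 of Dcakd, with 0.0086 at a coverage of 123 and 0.0096 at a coverage of 222. On the same Dcakd transcript the GGACA at position 553 read 0.975 and 0.969, and the AGACT at position 1008 read 0.744 and 0.792. Dcakd thus spans nearly the whole scale of the measure on 1 transcript. Pabpc1, the cytoplasmic poly(A)-binding protein, followed with 0.0106 at a coverage of 214 and 0.0305 at a coverage of 729 at position 2391. Uqcrh, a subunit of respiratory complex III, had 0.0161 at a coverage of 330 and 0.0283 at a coverage of 457 at position 333. The libraries differed by a median of 0.0156 at the 80 deep members, and by 0.0318 at the 156 members with 20 to 29 reads in the shallower library. Dcakd, Pabpc1 and Uqcrh, like Macroh2a1 and Mrpl14 above and the single genes of the families below, were named after their values were seen.

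The 10 members with the highest lower coverage lay in abundant transcripts of several kinds. Rps6, the protein of the small ribosomal subunit that is phosphorylated by S6 kinase, had 0.0398 at a coverage of 1450 and 0.0454 at a coverage of 2282 at the GGACC of position 489. Tmsb10, an actin-sequestering thymosin, had 0.0606 at a coverage of 1063 and 0.0645 at a coverage of 1645 at position 468. The large subunit protein Rpl3 had 0.0435 at a coverage of 871 and 0.0430 at a coverage of 1535 at position 1198. Both libraries gave nearly the same value at these depths. In Ran the GGACT at position 1056 read 0.0587 and 0.0672 at coverages of 787 and 1324. Fau, which encodes a ribosomal protein fused to a ubiquitin-like protein, read 0.0582 and 0.0526 at the AGACT of position 391 at coverages of 586 and 987. Eif4a1, the helicase of the cap-binding complex, read 0.0563 and 0.0624 at position 1164 at coverages of 525 and 1083. This set also held the Actg1 site above, position 486 of Rpl22l1 and position 880 of Ftl1-ps1. Ftl1-ps1 is named as a ferritin light chain pseudogene, and ribosomal protein, actin and histone genes also have near-identical copies. Reads may be divided among such copies, so these positions are uncertain as to their gene.

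Members were spread thinly over genes. Of 1515 named genes with a site at these motifs, 400 held a member: 346 held 1, 45 held 2, 5 held 3 and 4 held 4. They lay on 422 of 1670 transcripts, and 4 members were on transcripts without a gene name in the tables. The 4 genes with the most members were Rbmxl1, Id2, Nr2f1 and Rcc2, and Ppp1cc, Rpl22l1, Rpl3 and H3f3b completed the 8 leading genes. The first 4 of these had 8, 16, 12 and 9 sites at these motifs in all, so genes with many sites or several listed transcripts had more chances to hold a member. Nr2f1 is the only one of the 4 whose members lie on 1 transcript.

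Nr2f1 (chromosome 13, 78337092 to 78347876; gene coordinates as deposited, build unknown) encodes an orphan nuclear receptor that patterns the retina and forebrain. Its 4 members had a mean of 0.0438 in replicate 1 and 0.0567 in replicate 2. At position 2503 a GGACT read 0 at a coverage of 70 and 0.0240 at a coverage of 156, and at position 2520 another GGACT read 0.0714 at a coverage of 70 and 0.0938 at a coverage of 160. Both libraries gave the higher value at the second of these neighbours. An AGACT at position 2647 read 0.0167 and 0.0423, and a GGACC at position 2757 read 0.0870 and 0.0667. Between and beside the members lay sites of the same motifs with far higher values. Only 9 nt before position 2503, the AGACT at position 2494 read 0.310 and 0.489. The GGACC at position 2785, which is 28 nt after the member at 2757, read 0.553 and 0.514. The GGACC at position 2696, which is 61 nt before that member, read 0.388 and 0.162, so the libraries differed widely there.

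Id2 (chromosome 12, 25143798 to 25147139) encodes an inhibitor of basic helix-loop-helix factors that holds progenitors undifferentiated. Its transcript ENSMUST00000221761.1 had members at position 1409 (0.0968 and 0.0617), at position 1526 (0.0410 and 0.0631) and at position 1687 (0.0088 and 0.0591), at coverages of 138 to 142 in replicate 1 and 259 to 274 in replicate 2. Upstream on the same transcript a GGACT at position 1203 read 0.918 and 0.928, and an AGACT at position 1270 read 0.7 and 0.679. All 3 members of this transcript lay 3′ of these high sites. The remaining member of Id2, at position 990 of transcript ENSMUST00000020974.6, read 0.0270 and 0.0328. At a constant distance of 697 nt it matches the member at position 1687, and may be the same base listed again. The matches of members 1409 and 1526 on that transcript missed the rule. They read 0.0714 and 0.132 at position 712 and 0.0938 and 0.121 at position 829.

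Ppp1cc (chromosome 5, 122296341 to 122313336), a catalytic subunit of protein phosphatase 1, held GGACT members on both sides of a high GGACT on transcript ENSMUST00000102528.10. Position 395 read 0.0417 at a coverage of 112 and 0.0597 at a coverage of 240, and position 1283 read 0.0254 and 0.0292 at coverages of 138 and 287. Position 559, between them, read 0.894 at a coverage of 118 and 0.931 at a coverage of 252. The high site and both low ones share the motif and had similar coverage. In H3f3b (chromosome 11, 115912738 to 115918788), a gene of the replacement histone H3.3, all 3 sites at these motifs with 20 or more reads in each library were members, with values from 0.0399 to 0.0904. Rcc2 (chromosome 4, 140427852 to 140450531), a regulator of mitosis, and Rbmxl1 (chromosome 8, 79231898 to 79235527), a retrocopy of the splicing regulator gene Rbmx, each had an AGACT and a GGACC member on each of 2 transcripts. For Rbmxl1 the reads may be divided with Rbmx.

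Members repeated across isoforms were set side by side where the sites of a gene stood at a constant distance on both transcripts, with the same motif, at 2 or more positions. This comparison was added after the values were seen. In 18 genes 27 such pairs held a member, and in 17 pairs both sites were members. In Rcc2 the distance was 232 nt, and the GGACC read 0 and 0.0342 on one transcript and 0.0200 and 0.0588 on the other. In Rbmxl1 the distance was 65 nt, and the AGACT read 0.0536 and 0.0463 on one and 0.0563 and 0.0777 on the other. In the 10 remaining pairs the site on the second transcript missed the rule, and its mean fraction was at most 0.198. This was the Actg1 site, which read 0.184 at a coverage of 56 and 0.213 at a coverage of 116 on transcript ENSMUST00000106215.10, against 0.0886 and 0.0990 on the transcript with the member. The paired sites differed by a median of 0.0223 in mean fraction. How reads were assigned to isoforms is not given in the sources used here, and such pairs may be the same base listed more than once.

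**Figure D3:**
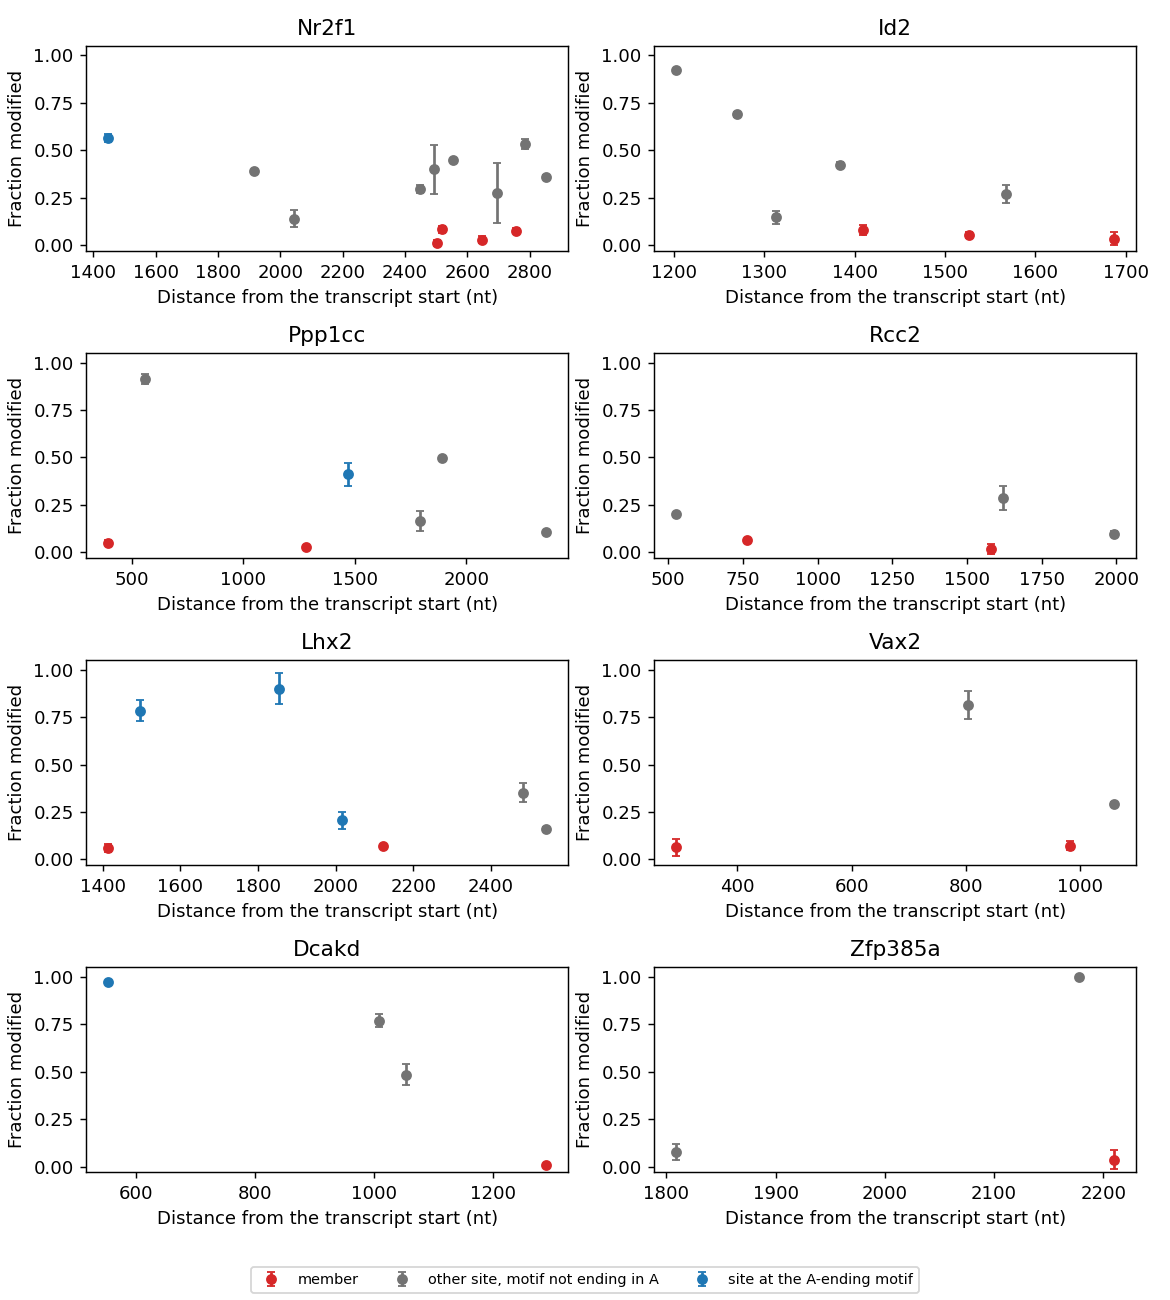
Mean fraction modified (y axis, bars SD of 2 libraries) at every site with 20 or more reads in each library against distance from the transcript start in nt (x axis), on 1 transcript each of Nr2f1, Id2, Ppp1cc, Rcc2, Lhx2, Vax2, Dcakd and Zfp385a. Members (red) lie among other sites at motifs not ending in A (grey) and sites at the A-ending motif (blue), as in Ppp1cc, where a site of 0.912 lies between members of 0.0507 and 0.0273.

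Among the eye-field genes Lhx2, a LIM homeobox gene needed for the optic vesicle, was the only one with members, 2 of the 22 sites of 6 such genes (9.09%, 2.53% to 27.8%) against 3.53 from the shares of the coverage classes and 14.6% over all sites. A GGACT at position 1414 read 0.0476 at a coverage of 65 and 0.0759 at a coverage of 182. An AGACT at position 2122 read 0.0714 at a coverage of 103 and 0.0650 at a coverage of 237. On the same transcript the GGACA at position 1495, only 81 nt after the first member, read 0.744 and 0.823. The GGACA at position 2017, which is 105 nt before the second member, read 0.237 and 0.174. Vax2, a homeobox gene of the ventral eye outside the list and named after its values were seen, also had 2 members. They read 0.0312 and 0.0952 at position 293 and 0.0556 and 0.0882 at position 981. The GGACT at position 804 of Vax2 read 0.760 and 0.868, so low and high GGACT sites stand on 1 transcript here too. Of the m6A writers, erasers and readers, 3 genes had sites at these motifs, and Igf2bp3, an m6A-binding protein, held the single member among 6 sites, against 0.797 from the coverage classes. It was a GGACC at position 2203 with 0.0417 at a coverage of 27 and 0.0984 at a coverage of 67.

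Gene families were described by counts, beside the number that the shares of the coverage classes would give for the same sites. In none of the 22 families with sites did the 95% Wilson interval of the share leave out 14.6%, the share over all sites. Replication genes had the highest share, with 10 members among 39 sites (25.6%, 14.6% to 41.1%) against 5.74. They included Pcna, the sliding clamp of DNA polymerase, with 0.0638 at a coverage of 353 and 0.0786 at a coverage of 706 at position 215. The replicative helicase genes Mcm2, Mcm3, Mcm5 and Mcm6 each had members, from 0 to 0.1 in single libraries. Rpa2, of the single-strand binding complex, had 0 at a coverage of 33 and 0.0263 at a coverage of 89. Oxidative phosphorylation genes had 12 members among 55 sites (21.8%, 13.0% to 34.4%) against 8.88, of which Sdhaf1 and Ndufaf2 encode assembly factors. In this family Cox6a1 read 0.0323 at a coverage of 243 and 0.0230 at a coverage of 388, and Cox7a2 read 0.0547 at a coverage of 374 and 0.0498 at a coverage of 531. Mitochondrial ribosomal protein genes had 12 members in 11 genes among 67 sites (17.9%) against 9.75.

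Cytosolic ribosomal protein genes had 8 members among 66 sites for the large subunit (12.1%) against 10.8, and 2 among 29 for the small subunit (6.90%) against 4.83. Fau, which also encodes a ribosomal protein, was in neither list, although it held members on transcripts ENSMUST00000043074.11 and ENSMUST00000178310.7. The 8 large subunit members came from 3 genes, Rpl3, Rpl22 and Rpl22l1, each listed on several transcripts. Within each gene the members match each other at constant distances, so they may be the same base listed more than once. Translation factor genes had 10 members in 10 genes among 59 sites against 9.01. Among them Eif4b, a cofactor of the cap-binding helicase, read 0 at a coverage of 84 and 0.0165 at a coverage of 234 at position 2978, while the AGACT at position 772 of the same transcript read 0.667 and 0.673. Genes of hnRNP, SR, snRNP, Prpf and SF3 splicing proteins had 10 members among 81 sites against 12.2, and chaperone genes 7 among 61 against 9.36. Genes of cyclins and CDKs had 4 among 18 against 2.68, among them Ccnd1, Ccnd2, Cdk1 and Cdk7. The lowest shares were 1 of 25 for aminoacyl-tRNA synthetases, in Kars, against 3.34, and 3 of 48 for genes named Rab, Cop, Arf, Vps or Sec against 6.89. That list was set by symbol and leaves out other trafficking genes with members, such as Cltc, the clathrin heavy chain, and Sar1a, each with 2. The number of members was above the number from the coverage classes in 10 of the 22 families. No family was therefore separable from all sites at these counts.

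**Figure D4:**
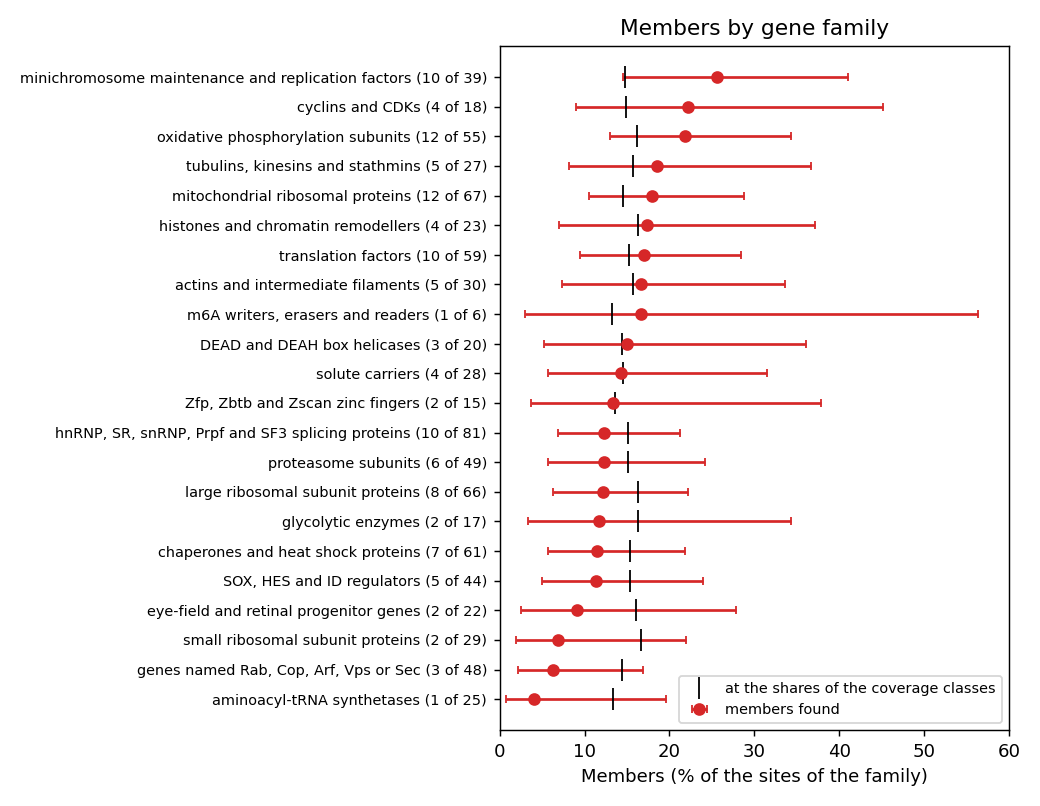
Members as percent of the sites of each gene family (x axis; red points, bars 95% Wilson intervals) for 22 families (y axis, with members of sites), and the share that the coverage classes would give (black ticks). The points run from 4% for aminoacyl-tRNA synthetases to 25.6% for replication genes, and every interval includes 14.6%.

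Position along the transcript was compared in the same way. Members had a median position of 1117 nt (interquartile range 582 to 1800), and the other sites, weighted to the same coverage, 1071 nt (614 to 1693). The median of the other sites lay within the 95% order-statistic interval of the median for members, 1020 to 1205 nt. The member nearest the start was at position 65 of Mrpl43, and the farthest at position 7300 of Ptprf, a receptor phosphatase gene. Within the first 500 nt lay 19.96% of members and 18.85% of the weighted other sites, and within the first 150 nt 1.70% and 2.68%. By window, the share of members was lowest in the first 150 nt, with 8 of 79 sites (10.1%, 5.22% to 18.7%), and highest in the next window, up to 500 nt, with 86 of 517 (16.6%, 13.7% to 20.1%). All 7 windows had intervals that include 14.6%. At GGACC members had a median position of 1040.5 nt against 923 nt at the weighted other sites, at AGACT 1201 against 1140 and at GGACT 1114 against 1147.

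**Figure D5:**
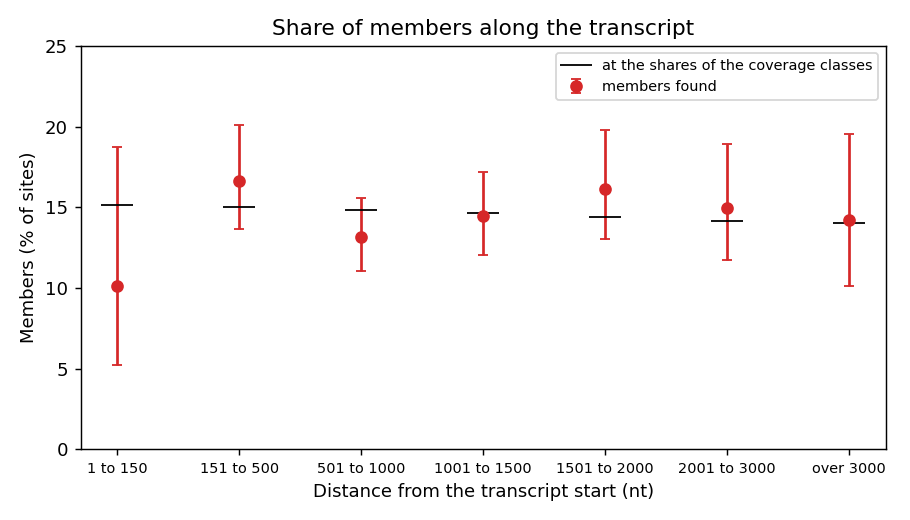
Members as percent of sites (y axis; red points, bars 95% Wilson intervals) in 7 windows of distance from the transcript start in nt (x axis), with the share that the coverage classes would give (black bars). The points lie between 10.1% and 16.6%, and the interval of each window includes 14.6%.

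Within transcripts, members and other sites were mixed in order. On 292 transcripts with both kinds, the members lay on average nearer the start on 157 and farther on 135. The median of the difference in mean position was -24.2 nt (members minus other sites). Relative to the last listed position of the transcript, on transcripts with 3 or more listed positions, the median was 0.798 for members and 0.786 for the weighted other sites. A second site with 20 or more reads in each library was on the transcript of 410 members, and the nearest was a median of 133 nt away, against 132 nt for the other sites that had one. It lay within 20 nt for 9.02% of these members and 8.99% of these other sites. Where that nearest site was at GGACA, its mean fraction had a median of 0.627 for 155 members and 0.708 for 852 other sites. Where it was at another motif, the medians were 0.247 for 255 members and 0.252 for 1484 other sites. On 243 transcripts with members and GGACA sites, the members lay nearer the start on average on 96. The same count was not made for the other sites, so it does not set the members apart.

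The sites of other motifs on the same transcripts were not used by the rule. GGACA sites on transcripts with a member numbered 425, with medians of 0.667 and 0.662 in replicates 1 and 2. On transcripts with sites at the 3 motifs but no member, 987 GGACA sites had medians of 0.726 and 0.686. The gap was 0.0588 in replicate 1 and 0.0245 in replicate 2, in the same direction in both libraries, and the libraries differed from each other by up to 0.0392 within a set of transcripts. The share of GGACA sites at 0.7 or more in each library was 43.8% and 46.1%, and the share at 0.1 or less in each was 2.59% and 2.23%. The other sites at the 3 motifs had medians of 0.3 and 0.283 on transcripts with a member and 0.3 and 0.291 on those without. These medians differed by 0.0076 or less within a library.

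Of the 422 transcripts with a member, 181 (42.9%) also had a site of 0.7 or more in each library, 142 at GGACA and 61 at a motif not ending in A. Among 1248 transcripts with sites at these motifs and no member, 518 (41.5%) had such a site. Transcripts with a member had a median of 2 sites at the 3 motifs, and the others 1. The member was the only site at these motifs on 121 transcripts, all of several sites were members on 9, and members stood beside other sites on 292. A member and a site of 0.7 or more at the same motif shared a transcript in 24 pairs on 23 transcripts, a median of 411 nt apart. Only 2 of these pairs lay within 100 nt. In Zfp385a, a zinc-finger gene, the GGACT at position 2178 read 1 at a coverage of 29 and 1 at a coverage of 76. The GGACT at position 2210, which is 32 nt farther, read 0.0741 at a coverage of 29 and 0 at a coverage of 75. In Gga2, an adaptor of trafficking from the Golgi, the GGACC at position 2605 read 0.895 and 0.921 and that at position 2674 read 0.0909 and 0.100, at coverages of 30 and 51. The difference within the pair was 0.926 in replicate 1 and 1 in replicate 2 for Zfp385a, and 0.804 and 0.821 for Gga2.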

How the data were processed

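The authors deposited 1 plus and 1 minus table for each library. In them the fraction modified is a fraction from 0 to 1, per the file headers, and coverage, as deposited, holds counts of reads in whole numbers, 5 or more in every row. The aligner, modification caller and thresholds are not given in the sources used here. The submitters' processing notes name mm10, yet 10 of 398 member genes matched by symbol had a deposited start within 1000 bases of GRCm38.p6 in RefSeq.

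Plus tables were joined on transcript and end position with pandas 2.3.3 in Python 3.11.15, and no member was listed in a minus table. The denominator of the fraction is not given and was not the coverage at most members, so single fractions carry no interval. With 1 group of 2 libraries and a rule that uses the fraction, no test was run, and levels are given as the values of both libraries (mean and SD, n = 2, in the plot of single transcripts), and shares as counts with 95% Wilson intervals (scipy 1.17.1). The other sites were weighted to the members' classes of lower coverage (20 to 29, 30 to 49, 50 to 99, 100 or more). The code for the selection and the weighting was run on simulated data. Such a run checks that the rule was applied as stated, and not whether the deposited fractions are right. Members, gene families and lists were chosen with earlier results of these data known.

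Named are the 8 genes with the most members, the 10 deepest members, those at 0 in both libraries, members in the eye-field and m6A lists, same-motif pairs within 100 nt, and sites at the limit, with exceptions stated. Some items are not reported here. The alternatives tried were minimums of 10 and 50 reads, limits of 0.05 and 0.2, the mean of both libraries, 1 transcript per gene and each library alone.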

Additional observations from a re-analysis of the deposited data

How the results depend on the processing

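Of 56 alternative values under 8 settings, 31 stayed close to the reported value (a count by its ratio, a share or median by its interval). Against 471 members in 400 genes, a minimum of 10 reads gave 1007 in 831 genes, 50 reads gave 182 in 155, a limit of 0.05 gave 110 in 102, and 0.2 gave 1193 in 831. As percent of sites, 50 reads gave 16.4%, 0.05 gave 3.42%, 0.2 gave 37.1% and the mean of both libraries 19.97%, against 14.6%. GGACC held 30.3% with 10 reads and 42.3% with 50, against 35.2%, and GGACT held 46.8% with 10 reads and 37.55% with 0.2, against 42.3%. GGACC held more members than GGACT in 2 settings, 42.3% against 37.9% with 50 reads and 38.7% against 37.55% with 0.2. The median position was 1244 nt with 10 reads and 876 nt with 50, against 1117 nt. Each library alone gave 925 to 2349 members, 22.4% to 22.5% of sites, 691 to 1627 genes and a median position of 1062 to 1363 nt. Looser settings keep every member by construction, and 447 members remained with 1 transcript per gene. For the shifts by motif and position the cause was not tested. No paired analysis was possible because both libraries belong to 1 group. Values of 0 went with low coverage: 55 of the 156 members with 20 to 29 reads were at 0 in a library, against 0 of 80 with 100 or more. The cause was not tested.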
